A study of Mus musculus with 20 samples.

Results

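The Sox2 locus was examined in 18 ChIP-seq peak lists as a window on mouse chromosome 3, chr3:34450000-34720000 in build mm9, which holds the gene at about 34.549 to 34.551 Mb and the distal control region downstream of it. A peak belonged to the window when its midpoint lay inside it. The window held 362 of the 765133 peaks in the lists. Intervals that overlapped by at least 1 bp in any lists were merged, which gave 56 regions. Each region is named here by the distance of its centre from the rounded start of the gene, minus for upstream and plus for downstream.

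Sox2 is an HMG-box transcription factor that holds embryonic stem (ES) cells in the pluripotent state. It binds DNA beside the POU factor Oct4 (Pou5f1) on composite elements, and the gene is one of the targets of this pair. Known enhancers of Sox2 include the regulatory regions SRR1 and SRR2 on either side of the gene and a control region far downstream that is needed for its full expression in ES cells. Sox17, a related HMG-box factor, is known for its part in endoderm and pairs with Oct4 on a shortened composite element. The exchange of a lysine of Sox2 and a glutamate of Sox17 at the surface that faces Oct4 gives the forms Sox17EK and Sox2KE, so that Sox17EK and Sox2 carry the lysine and Sox2KE and Sox17 the glutamate.

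All ES libraries came from KH2 cells grown with LIF, in which doxycycline at 1 µg/ml induced a V5-tagged Sox17EK, Sox2KE, Sox2 or Sox17. Oct4 was precipitated in the Sox17EK, Sox2KE and Sox2 lines (libraries A and B of each) and in Sox17 cells (library A only), 7 lists in all, and the labels of these name V5 as a further antibody. The Sox protein was precipitated in 8 lists, A and B for each of the 4 forms, with V5 alone for Sox17EK, Sox2KE and Sox2 and with Sox17 and V5 both named for Sox17. The other 3 lists came from F9 embryonal carcinoma cells, Oct4 and Sox17 after 1 µM retinoic acid (F9+RA), when the labels call the cells primitive endoderm-like, and Oct4 in untreated F9. ES cells express their own untagged Sox2, each form is represented by 1 line, so form and line cannot be told apart. The 2 mock ChIP libraries have not been analysed here. Nothing in the labels says that A and B were separate cultures, so the p-values measure the spread between these libraries, which may be technical.

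The lists held 5836 peaks (Sox17 ES B) to 84196 peaks (Oct4 F9+RA). Read depth is unknown. The deposited score has no stated scale, and a peak's score and rank describe it within its own list only. The rank is 1 plus the number of higher-scoring peaks, and many peaks share the score 3100. To set lists of unequal length side by side, the 5836 highest-scoring peaks of each list were counted, a number equal to the length of the shortest list, and these are called the strong peaks. The lowest score among them ran from 50.03 in Sox17 ES B, where every peak is strong by construction, to 975 in the Oct4 list of Sox17EK line A.

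Among the 56 regions, 22 had a peak in 1 list only, with scores of 51.6 to 118. A further 21 had peaks in 2 to 8 lists, and 13 had peaks in 9 or more. The region over the gene was the 1 region with a peak in all 18 lists. ES lists alone held 19 regions and F9 lists alone held 10. With 15 ES lists and 3 F9 lists, and no genome-wide share counted, these numbers only describe the window. The strong peaks numbered 110 of the 362.

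**Figure D1:**
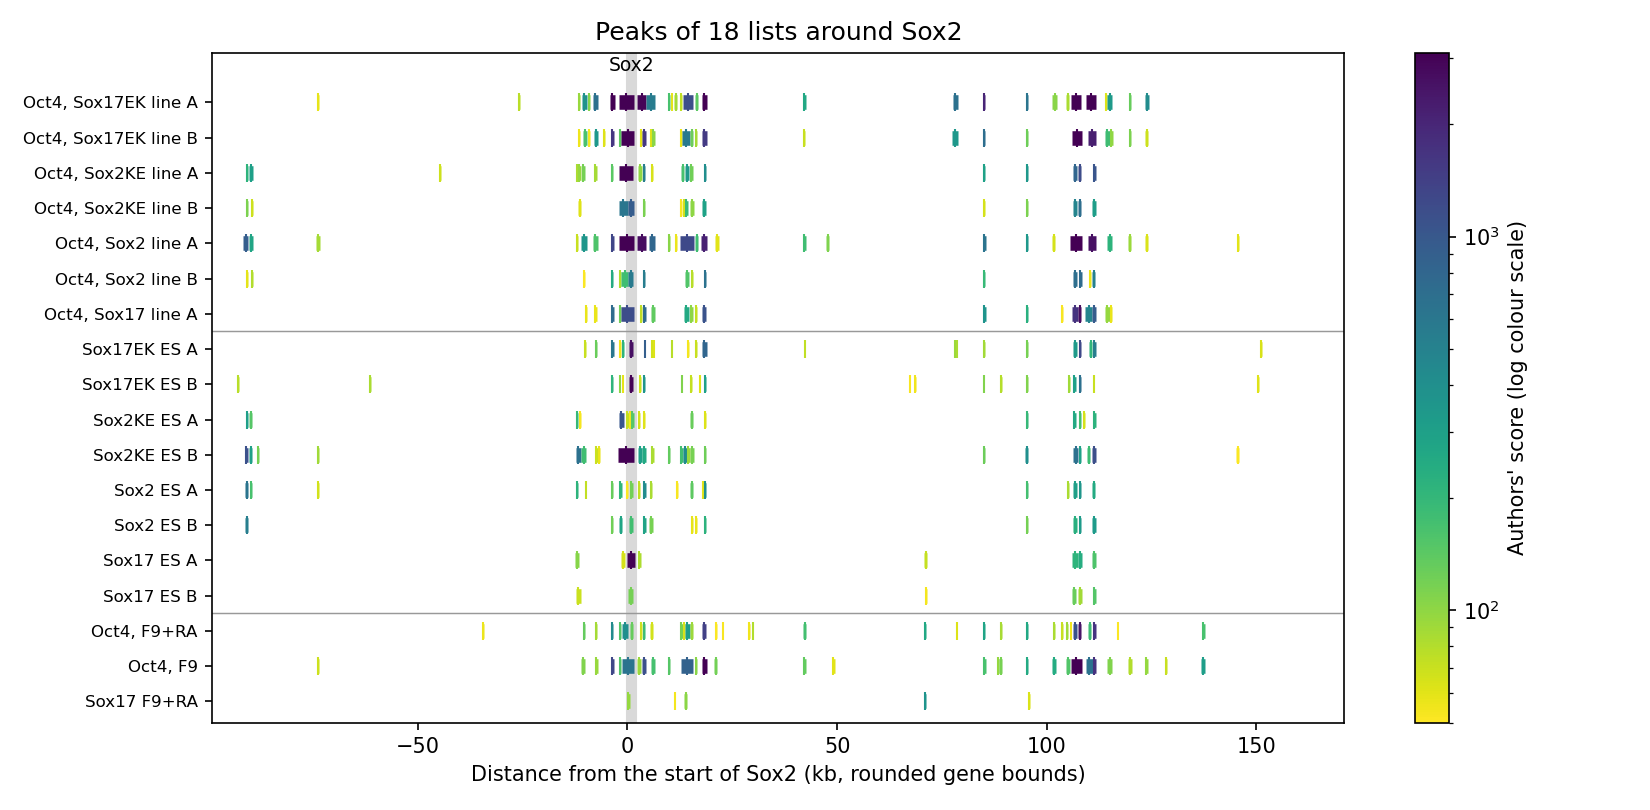
Every peak of the Sox2 window drawn at its distance from the rounded start of the gene (x axis, kb) for each of the 18 libraries (rows), coloured by the authors' score on a log colour scale from 50 to 3100; the grey band marks the gene. Peaks stack up in the same places near the gene and 107.0 to 110.2 kb downstream in nearly all rows, and peaks at -91.0 kb stand in rows of the Sox2KE and Sox2 lines.

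The sequence just upstream of the gene start is shown because peaks covered the rounded start in 14 libraries. It is RefSeq's, in build GRCm38.p6, chr3:34649745-34649994 on the plus strand, and was not placed on the mm9 coordinates used elsewhere. Capitals mark matches to the Sox-type motif ACAAAG, first base at position 45, and to the octamer-type motif of Oct4, ATGCAAA, first base at position 152. Positions count from 1 at the 5′ end, and both matches lie on the plus strand.
Sox2: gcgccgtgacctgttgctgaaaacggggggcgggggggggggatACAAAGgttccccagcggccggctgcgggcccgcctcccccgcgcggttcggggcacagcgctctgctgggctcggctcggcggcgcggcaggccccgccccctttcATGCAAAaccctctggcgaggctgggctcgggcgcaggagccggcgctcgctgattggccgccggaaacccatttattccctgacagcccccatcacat
Either strand was searched. Of 32851 promoter windows of the same length, 16.5% held ACAAAG and 4.12% held ATGCAAA. A shorter Sox motif, ACAAT, had no match in the Sox2 window and was present in 27.7% of all windows. These letters are a description of the sequence and not evidence of a bound site. The same annotation places the long noncoding gene Sox2ot across Sox2, with Dnajc19 and Atp11b as the nearest protein-coding neighbours.

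The region over the gene, chr3:34546793-34550787 (centre at -0.2 kb), included the highest-ranking peaks of the window. Its best Oct4 score was 3100 and 3100 in Sox17EK cells, 3100 and 933 in Sox2KE cells, 3100 and 579 in Sox2 cells (A and B of each) and 1192 in Sox17 cells. The best Sox score was 2620 and 3100 for Sox17EK, 1036 and 3100 for Sox2KE, 205 and 273 for Sox2, and 3100 and 119 for Sox17. In F9+RA the Oct4 score was 409, against 639 in F9, and Sox17 in F9+RA scored 96.4. Placed within their own lists, these peaks differ widely. In the Sox17EK B and Sox17 A lists no peak scored higher, with 4 peaks of each list at the same score, while 19.5% and 12.9% of the Sox2 lists A and B scored as high or higher. For Sox2KE A and B the shares were 0.833% and 0.135%, so both ranked higher than the Sox2 peaks. The 2 Sox17 libraries were also far apart, since the peak of B had 20.5% of its list at or above it.

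Where the intervals lay within this region also differed between libraries. In the Sox17EK lists the best peak lay wholly inside the rounded gene bounds, at chr3:34549259-34550385 (1127 bp) in A and chr3:34549269-34550364 (1096 bp) in B. The Sox17 peak of B, at chr3:34549241-34550428, lay inside the bounds as well, and that of A, at chr3:34548804-34550787, had 90.1% of its length in them. In the Sox2 lists the best peaks were upstream of the start, at chr3:34547025-34547640 in A and chr3:34547024-34547770 in B. The Sox2 lists had other, lower peaks inside the gene, with scores of 120 in A and 175 in B. Of the Sox2KE lists, A had its best peak upstream, at chr3:34547033-34548050, and inside the gene scores of 54.1 and 148, while B had 1 interval of 3814 bp across both places. In all, 24 peaks of the 18 libraries overlapped the rounded gene bounds, and 10 of them, in 9 libraries, lay wholly inside. Reads of the resident gene and of any other DNA with Sox2 sequence, such as the constructs of the Sox2KE and Sox2 lines, cannot be told apart in peak lists. This limit holds for every peak inside the gene, those of Sox17EK and Sox17 A included, which ranked highest there. For these the constructs just named are those of other lines, and no source of such DNA was tested.

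Downstream, the region centred at +107.0 kb, chr3:34654514-34657452, lies at the distance given for the distal control region. It had a strong peak in 17 of the 18 libraries, all but Sox17 F9+RA. Oct4 scored 3100 and 3100 in Sox17EK cells, 1208 and 712 in Sox2KE cells, 3100 and 743 in Sox2 cells and 2683 in Sox17 cells. Sox scores were 1265 and 685 for Sox17EK, 257 and 677 for Sox2KE, 354 and 330 for Sox2, and 236 and 128 for Sox17. In F9+RA Oct4 scored 2470, against 3100 in F9. Within the lists the order depended on ties. At or above these peaks stood 0.151% of F9+RA and 0.234% of F9, where 134 peaks share the score 3100. By rank, which leaves ties out, the F9 peak was 18 of 64582 and the F9+RA peak 127 of 84196. The share of a list at or above its best peak in this region was 0.112% in the Oct4 library of the Sox17 line and 17.9% in Sox17 B, the ends of the range, with a median of 1.48% over the 17 libraries. In 13 of them the region was split into several peaks.

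The neighbouring region at +110.2 kb, chr3:34657618-34660831, was held by the same 17 libraries, with strong peaks in 14. Oct4 scored 3100 and 2189 in Sox17EK cells, 1046 and 313 in Sox2KE cells, 2618 and 510 in Sox2 cells and 942 in Sox17 cells. The Sox scores were 547 and 70.9 for Sox17EK, 219 and 1144 for Sox2KE, 252 and 330 for Sox2, and 159 and 151 for Sox17. In F9+RA the Oct4 score was 1654, against 1728 in F9. Within the lists the order was the other way here, with 0.455% of F9+RA and 1.08% of F9 at or above. The Sox17EK replicates disagreed, since 5.23% of list A but 61.3% of list B stood at or above the best peak. The shares for A and B were 18.8% and 2.73% for Sox2KE and 14.7% and 9.51% for Sox2.

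Of the 46 regions with any ES peak, 3 had one in every ES list: the gene and the regions at +107.0 and +110.2 kb. Across the genome 1.05% of merged regions with an ES peak had that pattern. The same 3 were the regions held by every Sox ES list, of 35 with a Sox ES peak, against a genome-wide 1.45%. Every Oct4 ES list held 7 of 35 regions, at -0.2, +3.4, +14.2, +18.3, +85.1, +107.0 and +110.2 kb, and the genome-wide share was 14.9%. With clusters of midpoints in place of overlapping intervals the counts were 1 for every ES list and 4 for every Oct4 ES list.

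Closer to the gene on its downstream side, Sox17EK and Sox2 had higher-ranking peaks than Sox2KE at both +18.3 and +3.4 kb. The region at +3.4 kb, chr3:34551319-34553431, had peaks in 16 libraries, and the one at +18.3 kb, chr3:34566618-34567973, in 15. At +18.3 kb Oct4 scored 3100 and 1532 in Sox17EK cells, 412 and 286 in Sox2KE cells, 2125 and 656 in Sox2 cells and 1084 in Sox17 cells. The shares of the lists at or above were 1.35% and 1.48% (Sox17EK), 13.9% and 23.7% (Sox2KE), 2.51% and 2.62% (Sox2) and 1.48% (Sox17). Sox scored 801 and 295 for Sox17EK, 62.6 and 123 for Sox2KE and 399 and 217 for Sox2 there, with no peak for Sox17. By place within the list, 2.73% and 3.73% of the Sox17EK lists and 7.27% and 18.1% of the Sox2 lists were at or above these peaks, against 78.2% and 50.97% of the Sox2KE lists. Each of the 4 lysine libraries ranked this region higher than either Sox2KE library did. At the gene, by contrast, both Sox2KE libraries ranked higher than both Sox2 libraries. How often regions across the genome have either order was not counted. Oct4 in F9+RA scored 1388 there and Oct4 in F9 scored 3100.

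At +3.4 kb Oct4 scored 2990 and 1587 in Sox17EK cells, 541 and 116 in Sox2KE cells, 2700 and 548 in Sox2 cells and 739 in Sox17 cells. The Oct4 shares of the list at or above were 1.46% and 1.38% (Sox17EK), 8.91% and 54.2% (Sox2KE), 1.64% and 3.99% (Sox2) and 3.24% (Sox17). Sox scored 902 and 361 for Sox17EK, 64.9 and 307 for Sox2KE, and 422 and 281 for Sox2, and Sox17 had a peak in A only, at 83.5. In the Sox lists the shares were 2.14% and 2.56% for Sox17EK and 6.63% and 12.2% for Sox2. They were 75.1% and 23.3% for Sox2KE and 48.7% for Sox17 A. In F9+RA the Oct4 score was 184, against 1132 in F9.

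Upstream, the region at -3.6 kb, chr3:34544911-34545931, separated the forms by presence. Sox17EK scored 604 and 211 there and Sox2 scored 130 and 123, while no list of Sox2KE or Sox17 had a peak. The shares of the Sox lists at or above were 4.54% and 6.55% for Sox17EK. For Sox2 they were 33.7% and 37.5%, and neither Sox2 peak was a strong one. The Sox17 lists, the shortest, held only 6 and 5 regions of the window. Oct4 scored 3100 and 1641 in Sox17EK cells, 1318 and 248 in Sox2 cells and 727 in Sox17 cells. In the Sox2KE line it scored 145 in A and had no peak in B. The shares of the Oct4 lists at or above were 1.35% and 1.29% (Sox17EK), 5.35% and 17.5% (Sox2), 3.35% (Sox17) and 43.1% (Sox2KE A). By this share the Sox17 line came before both Sox2 lists. Oct4 scored 430 in F9+RA and 1295 in F9, and Sox17 in F9+RA had no peak. The midpoints of the 12 libraries lay within 146 bp of each other. This was the 1 region, of 35 with a Sox ES peak, held by every lysine Sox list and no glutamate Sox list, and 0.939% of such regions across the genome shared the pattern. The reverse, every glutamate Sox list and no lysine Sox list, was met by 0 of 35 regions, against 0.113% of the genome. Counts of 1 and 0 in 35 regions are too small to be read as particular to Sox2. A peak missing from a list fell short of the authors' threshold, and since depth is unknown it does not show that binding was absent.

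**Figure D2:**
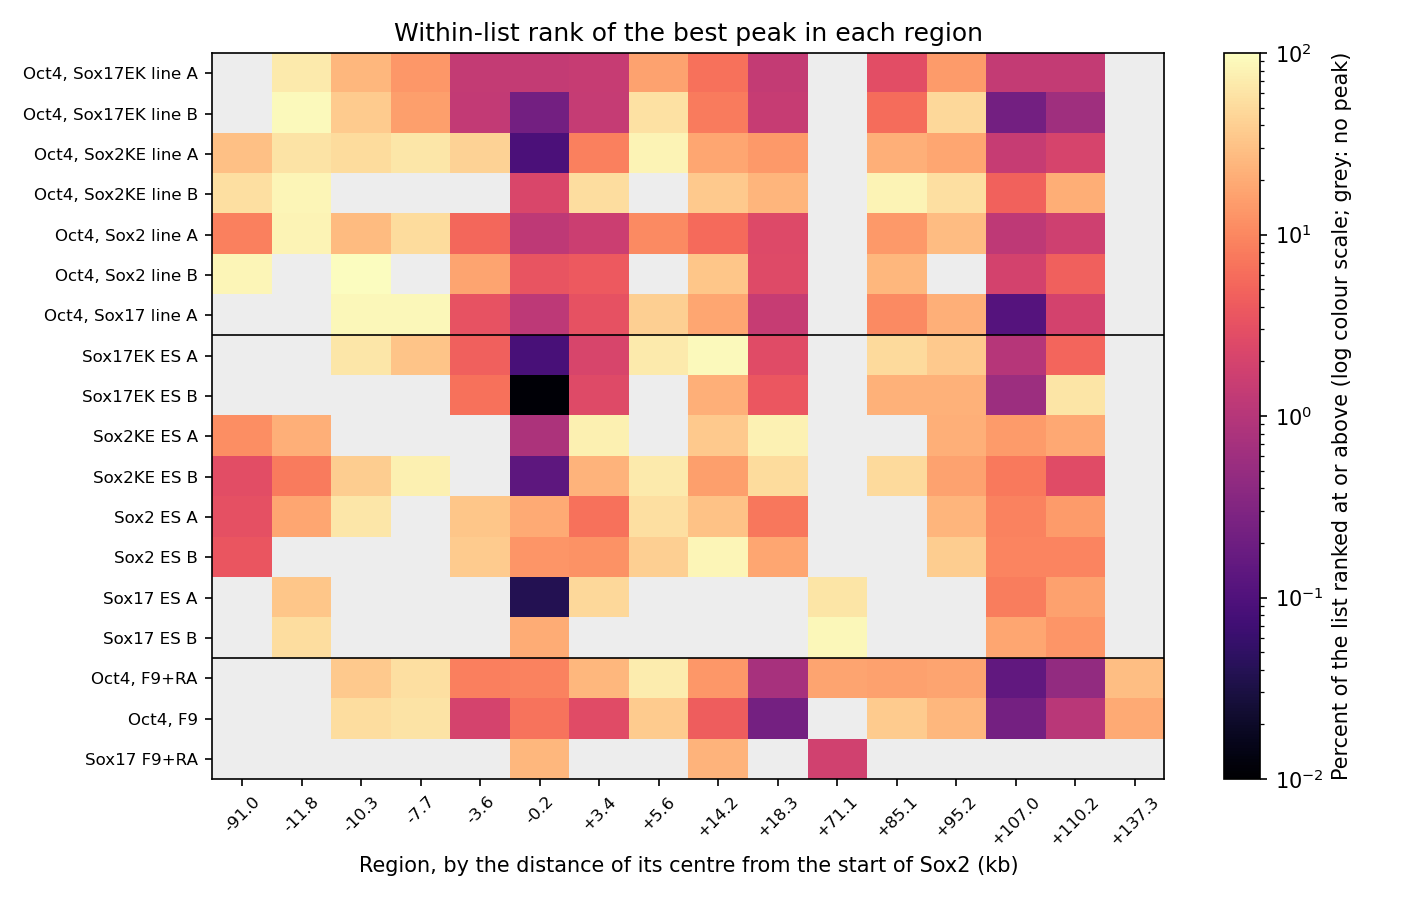
Percent of each library's list that scored at or above its best peak in a region (log colour scale, darker for higher-ranking peaks, grey for no peak), for 18 libraries (rows) and 16 regions (columns, kb from the rounded gene start). The gene and the +107.0 kb region have the lowest medians of the 16 regions, 1.29% and 1.48% over the libraries with a peak. The -3.6 kb and +18.3 kb regions are darker in the Sox17EK ES rows than in the Sox2KE and Sox17 ES rows, which are grey or pale there.

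The -11.8 kb region, chr3:34536502-34537958, had peaks in 10 libraries and none for Sox17EK. Its Sox scores were 196 and 666 for Sox2KE, 214 and no peak for Sox2, and 105 and 69.4 for Sox17. Oct4 peaks there were low, 55.7 to 95.7, in 5 ES libraries, and F9 had none. Within the lists, 21.7% and 7.96% of Sox2KE, 18.4% of Sox2 A, and 33.3% and 54.1% of Sox17 scored at or above these peaks.

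Further regions near the gene held by 9 or more libraries lay at -10.3, -7.7 and +5.6 kb. The -10.3 kb region, chr3:34537960-34539348, had best scores of 51.2 to 383 in 11 libraries. The -7.7 kb region, chr3:34540718-34541967, had scores of 57.3 to 672 in 9, the highest for Oct4 in Sox17EK cells. The +5.6 kb region, chr3:34553511-34555661, ran from 64.4 to 800.0 in 11. None of these 3 regions held a strong peak, and no list of the Sox17 protein had a peak in them.

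Further downstream, the +14.2 kb region, chr3:34561475-34564847, had best scores of 53.9 to 1247 in 16 libraries, all but the 2 Sox17 ES libraries. Its best peak was a strong one in 4 of them. The +85.1 kb region, chr3:34633707-34634443, was chiefly an Oct4 region. All 7 Oct4 ES lists held it, with scores of 65.0 to 2030 and a strong peak in 3 of them. Oct4 scored 278 there in F9+RA and 167 in F9. The Sox lists with a peak were Sox17EK A and B at 88.1 and 109 and Sox2KE B at 126. The +95.2 kb region, chr3:34643834-34644590, had scores of 109 to 629 in 14 libraries, none of them a strong peak, and its midpoints lay within 148 bp.

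The regions at -91.0, -89.8, +71.1 and +78.2 kb were chosen after their values were seen, because their peaks followed the line or the cell type. At -91.0 kb, chr3:34457400-34458534, Sox2KE scored 307 and 1121 and Sox2 scored 628 and 540. Oct4 scored 214 and 113 in Sox2KE cells and 919 and 58.8 in Sox2 cells, and no library of the Sox17EK or Sox17 lines or of F9 had a peak. It was the best-ranking Sox peak of the window in both Sox2 lists, with 3.10% and 3.55% of the list at or above it. Of 46 regions with an ES peak it was the 1 held by every list of the Sox2KE and Sox2 lines and none of the Sox17EK and Sox17 lines, a pattern of 0.426% of regions across the genome. Without Sox2 B the count was 2, the other being its neighbour at -89.8 kb, chr3:34458733-34459744, where scores were 68.4 to 304 in 7 libraries of these lines. Each form comes from 1 line, so form and line cannot be told apart here.

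At +71.1 kb, chr3:34619699-34620436, Sox17 scored 368 in F9+RA and 71.6 and 53.4 in ES A and B. Oct4 in F9+RA scored 261 there, and no other library had a peak. This was the best-ranking peak of the Sox17 F9+RA list in the window, rank 711 of 39768, and its 1 strong peak. Of 36 regions with a Sox peak it was the 1 held by all 3 Sox17 lists and no other Sox ES list, and 0.104% of regions across the genome had that pattern. The Sox17 libraries also share an antibody against Sox17, so protein and antibody cannot be told apart. At +78.2 kb, chr3:34626508-34627801, Oct4 scored 668 and 341 in Sox17EK cells, Sox17EK A scored 93.1 and Oct4 in F9+RA scored 62.5, with no peak elsewhere. For this last pattern the genome-wide share was not counted.

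In F9 cells there is 1 library per condition, so the values stand side by side with no test. Oct4 had 35 peaks in the window in F9+RA, against 30 in F9, and 4 strong peaks in F9+RA, against 8 in F9. Of 35 regions with an F9 Oct4 peak, 18 were held in both conditions, and the genome-wide share was 44.0%. Sox17 in F9+RA had 5 peaks, and of 28 regions with a peak for Sox17 or Oct4 in F9+RA, 3 had both, at -0.2, +14.2 and +71.1 kb, where the genome-wide share was 20.5%. The +137.3 kb region, chr3:34685862-34686734, had Oct4 peaks of 165 in F9+RA and 313 in F9 and none in any ES list. How often regions across the genome have this pattern was not counted.

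Counted over libraries, none of the 4 differences in strong peaks passed the test. Strong peaks numbered 9 and 6 for Sox17EK and 6 and 7 for Sox2, against 3 and 5 for Sox2KE and 6 and 6 for Sox17. The lysine libraries averaged 7 ± 1.41 and the glutamate libraries 5 ± 1.41 (SD, n = 4 each), a difference of 2 (p = 0.171 by an exact two-sided permutation test and 0.4 after adjustment over 4 tests). The smallest p this design allows is 0.0286 before adjustment. A difference counted as passing at an adjusted p of at most 0.05. A p at that floor would have passed only with small p-values in other tests of the 4 as well. The 2 sets touched at 6 peaks.

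Grouped by protein of origin, Sox2KE and Sox2 together averaged 5.25 ± 1.71 and Sox17EK and Sox17 together 6.75 ± 1.5 (SD, n = 4 each). The difference was -1.5 (exact permutation p = 0.4, adjusted p = 0.4). In the whole lists it was 4.25, the opposite direction, with 19 ± 5.16 peaks for the Sox2 forms and 14.8 ± 8.995 for the Sox17 forms (n = 4 each). The shortest lists are the Sox17 ones.

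Among Oct4 libraries there were 8 and 8 strong peaks in Sox17EK cells and 8 and 7 in Sox2 cells, against 5 and 4 in Sox2KE cells and 9 in Sox17 cells. The lysine lines averaged 7.75 ± 0.5 (SD, n = 4) and the glutamate lines 6 ± 2.65 (SD, n = 3). The difference of 1.75 did not pass (exact permutation p = 0.343, adjusted p = 0.4). It was 0.75 without Sox2KE line B (exact permutation p = 0.8, adjusted p = 0.8), 1.25 without Sox2KE line A, and 3.25 without the Sox17 line (exact permutation p = 0.0667, adjusted p = 0.267). Each of these runs had 15 arrangements, so no p under 0.0667 was possible and none could have passed. Both Sox2KE lists lay below all 4 lists of the lysine lines, and the Sox17 list lay above them.

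Oct4 ES lists had 7 ± 1.83 strong peaks (SD, n = 7) and Sox ES lists 6 ± 1.69 (SD, n = 8), a difference of 1 between groups that overlapped (exact permutation p = 0.32, adjusted p = 0.4). Both groups came from the same lines, and the test did not pair libraries by line. Most Sox peaks of the window overlapped an Oct4 peak of the same line. For Sox17EK this held for 22 of 23 peaks in A and 15 of 22 in B, or 95.7% and 68.2%, against 89.1% and 48.2% of the whole lists. For Sox2KE it was 94.1% and 76%, against 78.5% and 60.3% of the whole lists. For Sox2 it was 95.2% and 100%, against 83.4% and 91.3%. The Sox17 ES lists went the other way, with 6 of 8 and 4 of 6 peaks, 75% and 66.7%, against 87.1% and 80.3% of the whole lists. For Sox17 in F9+RA it was 3 of 5 peaks, 60%, against 53.1% of the whole list. The Sox17 comparisons had 1 Oct4 list each where the others had 2, and these shares were not tested. The labels of the Oct4 ES lists also name V5, with which the Sox proteins were precipitated. In the ES lists, shared sites and a shared antibody therefore cannot be told apart.

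**Figure D3:**
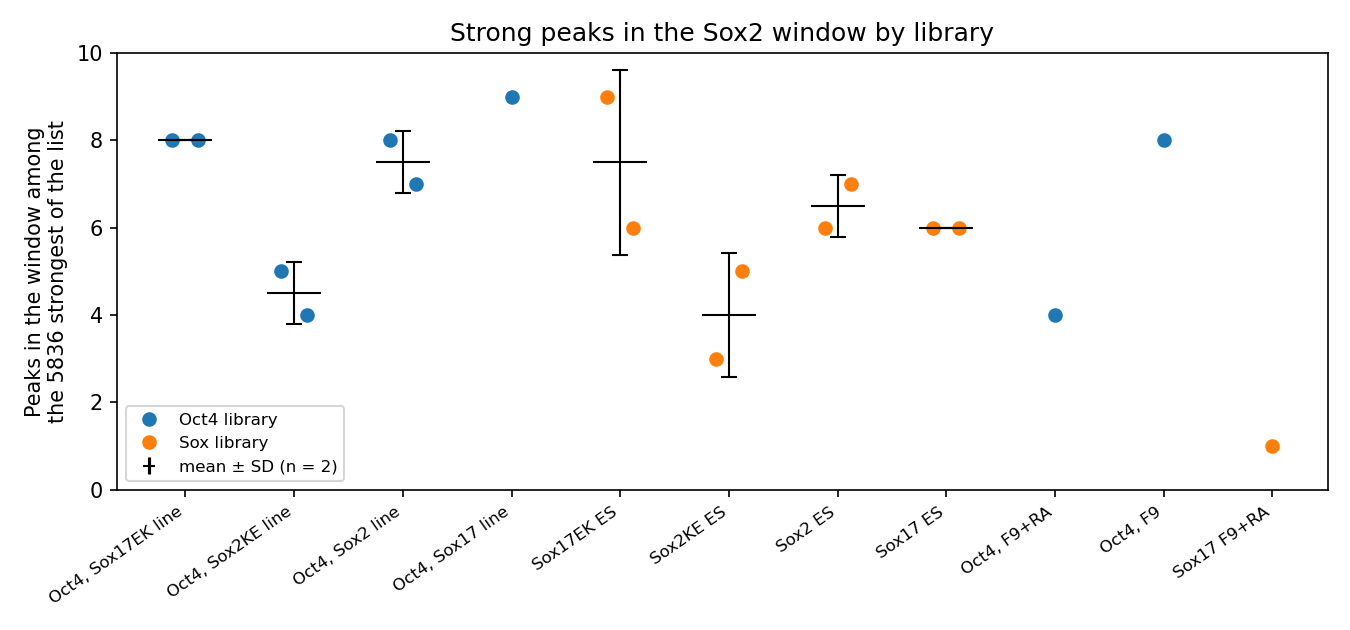
Peaks of the Sox2 window among the 5836 strongest of each list (y axis, count) for 11 groups of libraries, Oct4 in blue and Sox in orange; points are libraries and bars are mean ± SD where n = 2. The Sox2KE groups lie at 3 to 5, below all other ES groups.

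The window was rich in strong peaks next to the rest of the genome. The genome was cut into 9772 tiles of the window's length, 270 kb, and a tile held 0.596 to 0.597 strong peaks on average in each list. The Sox2 window held 1 to 9. In the Oct4 list of the Sox17 line 2 tiles, or 0.0205%, held as many or more, and in the Sox17 F9+RA list 29.7% did. The median over the 18 lists was 0.476%. Over whole lists it was 1.58%, with a range of 0.215% (Sox17EK A) to 29.7% (Sox17 F9+RA), and the Oct4 list of Sox17EK line A stood at 3.31% there, against 0.184% by strong peaks. Tiles are no replicates, and these shares are a description.

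**Figure D4:**
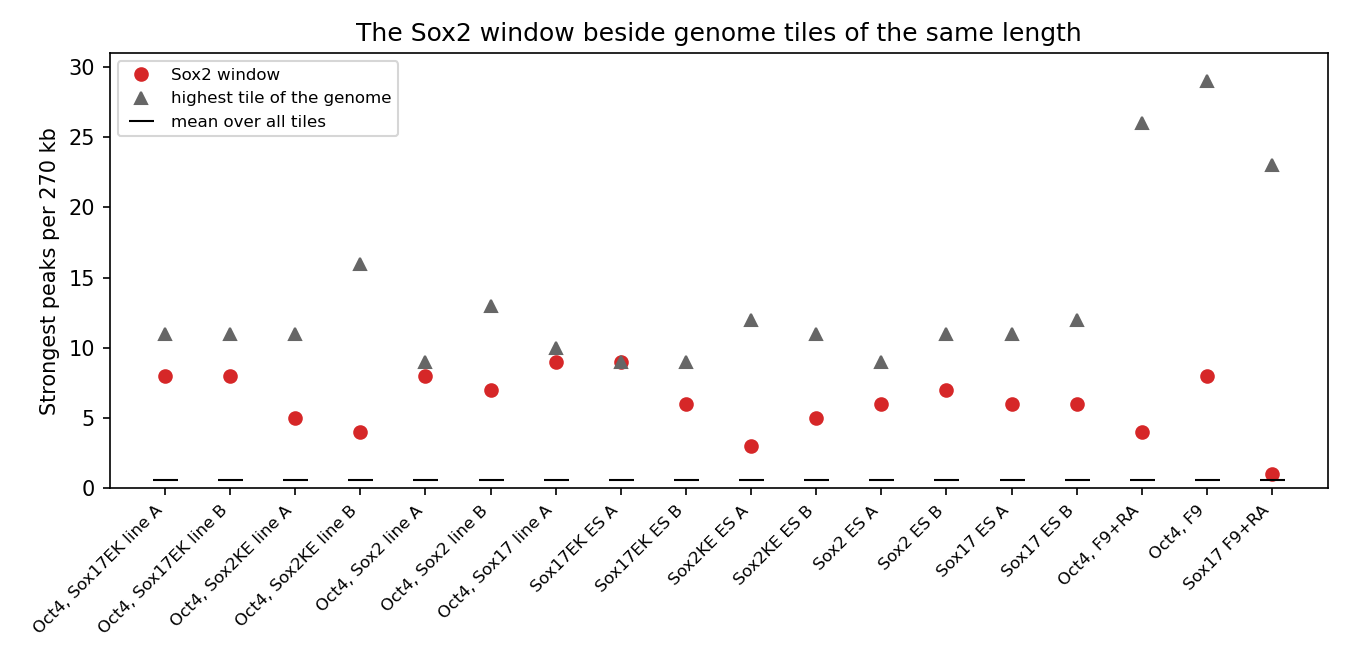
Strong peaks per 270 kb (y axis, count) in the Sox2 window (red), in the highest tile of the genome (grey) and on average over all tiles (black) for each of the 18 libraries. The window lies above the mean of 0.596 to 0.597 in every library, and in Sox17EK A it equals the highest tile, 9 peaks.

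The 3 tiles most like the window, by the smallest sum over the 18 lists of absolute differences in strong peaks, lay on chromosome 1. They were chr1:59400001-59670000 with a sum of 19 and 105 strong peaks in all, chr1:154710001-154980000 with 20 and 100, and chr1:183870001-184140000 with 25 and 93, beside 110 for the Sox2 window. Gene names were not assigned to them.

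Libraries A and B of a group shared window regions to different degrees. Both Sox17EK lists held 17 regions and shared 9. All 10 regions of Sox2KE A were among the 19 of B, Sox2 A and B shared 10 of 16 and 11, and all 5 of Sox17 B were among the 6 of A. For Oct4, A and B shared 20 of 27 and 21 regions in Sox17EK cells, 11 of 16 and 11 in Sox2KE cells, and 11 of 27 and 11 in Sox2 cells. Where replicate lists differ in length, the shorter was largely contained in the longer, except for Sox17EK.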

How the data were processed

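The data were 18 peak lists, 1 per ChIP-seq library. The authors deposited each as 5 columns without a header: chromosome, start, end, a name with a MACS prefix, and a score. Positions are in mm9, per the submitters' processing notes. The aligner, the caller's version and settings and the control used were not given in the sources used here. The deposited score has no stated scale. Its lowest value in each list was 50 to 50.03, so a peak below that is not listed, and peaks pile up at 3100. Read depth is unknown, so no interval is given.

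Starts were taken as 0-based and printed 1-based. Intervals overlapping by at least 1 bp over all lists were merged into regions. Group means of strong peaks (among the 5836 highest scores of a list) were set against each other by exact two-sided permutation tests over libraries with Benjamini-Hochberg adjustment over 4 tests. Regions named in full were those with peaks in at least 9 lists, those in at least 2 F9 lists and no ES list, and the one nearest the gene. Those at -91.0, -89.8, +71.1 and +78.2 kb lie outside this rule and were chosen after their values were seen. Shares of merged regions across the genome stand beside window counts. The promoter sequence and motif matches came from RefSeq, GRCm38.p6, and gene names were not placed on mm9. The alternatives tried were other list lengths, a score minimum of 100, other ways to join peaks, libraries left out and a replicate block. Simulated data were used to test the scripts (Python 3.11.15, NumPy 2.4.6, pandas 2.3.3, SciPy 1.17.1, matplotlib 3.10.9). The window, lists and tests were chosen with earlier results of these data known.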

Additional observations from a re-analysis of the deposited data

Results flagged for a closer look

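Among the 4 Oct4 libraries of the lysine lines, Sox2 line B stood apart with 7 strong peaks in the Sox2 window, where the other 3 had 8 each. A single count sets it apart. The lysine-minus-glutamate difference in strong Oct4 peaks had opposite signs in the 2 proteins. It was 3 for the Sox2 line minus the Sox2KE line and -1 for the Sox17EK line minus the Sox17 line, where every library of each pair moved that way. The Sox17 line has 1 Oct4 library, and the difference between these 2 values was not tested.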

How the results depend on the processing

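None of the 4 differences in strong peaks passed under any alternative run. Some runs could not have passed, having too few arrangements for any p at or under 0.05. These were lysine minus glutamate among Oct4 lists with a library left out (15 or 20 arrangements) and most replicate-block tests. The difference of Sox2 forms minus Sox17 forms turned to 4.25 over whole lists and 6 over whole lists with scores of at least 100; the cause was not tested. The 56 regions became 31 with scores of at least 100 and 11 with the strong peaks only. Regions in every ES list numbered 1 with midpoint clusters and 1 with strong peaks only, against 3; those in every Sox ES list numbered 1 with strong peaks only, against 3; those in every Oct4 ES list numbered 4 with midpoint clusters and 2 with strong peaks only, against 7. The strong-peak and score settings hold fewer peaks, and midpoint clusters split the same 362 peaks into 80 groups. Leaving out each library in turn gave 1.33 to 2.33 for lysine minus glutamate among Sox lists, -2.08 to -0.75 for Sox2 forms minus Sox17 forms, 0.75 to 3.25 for lysine minus glutamate among Oct4 lists and 0.571 to 1.5 for Oct4 minus Sox. With each ES library left out, an alternative chosen after the data were seen, there were 3 to 4 regions in every ES list, 3 to 4 in every Sox ES list, 7 to 9 in every Oct4 ES list, 1 in every lysine and no glutamate Sox list, and 1 to 2 in the Sox2KE and Sox2 lines alone. Libraries with the same letter did not deviate together, with A minus B from -2 to 3 strong peaks. The replicate block left the differences at 2, -1.5, 1.75 and 1, with an adjusted p of 0.444 for each (exact permutation within letters). The first 3 had 36, 36 and 18 arrangements, too few for any p at or under 0.05, so their calls could not change. The call for Oct4 minus Sox, with 2450 arrangements, did not change.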
